A study of Homo sapiens with 16 samples.

Results

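The comparison described here set HSB-2 cells carrying shRNA-4057, a short hairpin RNA against USP7, beside HSB-2 cells carrying a scrambled control. Its members were the 2 libraries labelled shRNA-4057 and the 2 labelled scrambled in HSB-2, chosen by sample title, which made 4 of the 16 libraries of the series. HSB-2 is an established human T-lineage acute lymphoblastic leukemia (T-ALL) line, labelled TAL1+, and total RNA was sequenced after ribosomal RNA depletion. The series held 4 groups of 2 libraries in each of the lines HSB-2 and Jurkat (also T-ALL, also TAL1+): untransduced wild-type cells, scrambled control cells, shRNA-4057 cells and cells with the other hairpin, shRNA-4058. The hairpins were delivered by lentivirus and target different exons of USP7, and transduced cells were sorted by GFP or selected with puromycin. Which of these was used for each library is not given in the sources used here. The labels name the scrambled control as an siRNA, and the design text names it as an shRNA. Nothing in the labels says that the 2 libraries of a group came from separate transductions or cultures, so p-values measure the spread between libraries, which may be technical. The question put to these libraries was which transcripts differ in a TAL1-positive leukemia line when the USP7 transcript is partly reduced.

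USP7 is a deubiquitinase, an enzyme that removes ubiquitin from other proteins and so changes their stability or localization. Its best known substrates are MDM2, the ubiquitin ligase that holds p53 low, and p53 itself, and it also acts on chromatin proteins such as DNMT1 and UHRF1. In T-ALL with active TAL1, TAL1 pairs with the E proteins TCF3 (E2A) and TCF12 (HEB), transcription factors that drive the programme of developing thymocytes, among them the recombinase genes RAG1 and RAG2 and the pre-T-cell receptor gene PTCRA.

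Total counts were 186681891 and 177317064 in the scrambled libraries and 93942513 and 112138109 in the shRNA-4057 libraries, within a range of 76602847 to 235467749 over the series. Levels are given in CPM, counts scaled to a common library size after TMM normalization, and compare the same gene between libraries, not different genes. The scrambled HSB-2 libraries stood apart from the wild-type ones: on the first principal component of the 8 HSB-2 libraries, which held 68.4% of the variance, scrambled libraries lay at -43.2 and -41.0, wild-type libraries at -6.72 and -7.72, shRNA-4057 at 19.1 and 17.4, and shRNA-4058 at 29.8 and 32.3. Scrambled against wild-type HSB-2 cells called 7857 of the 23063 genes tested (34.1%, with 16.1% higher and 17.9% lower), and shRNA-4057 against wild-type called 7300 (31.7%, with 16% higher and 15.7% lower), where called means an adjusted p under 0.05 in edgeR's quasi-likelihood test with Benjamini-Hochberg adjustment over all genes tested. Values against wild-type cells are therefore given beside the results against scrambled cells. Which of the controls lies nearer to HSB-2 cells with unaltered USP7 under lentiviral handling was not tested. T-lineage markers were present, with 11 of 12 at 1 CPM or more in both scrambled libraries and 12 of 12 in both shRNA-4057 libraries. Their summed level was 2875 to 2984 CPM in scrambled, 3866 to 3952 in shRNA-4057 and 3350 to 3358 in wild-type libraries, and 11 of the 12 were called higher in shRNA-4057 than in scrambled cells. Summed markers of other cell types were low, and some moved with the hairpin. The 6 B-lineage markers summed to 1.17 to 1.275 CPM in scrambled, 3.41 to 3.87 in shRNA-4057 and 3.21 to 3.23 in wild-type libraries, with PAX5 (log2 1.88) and CD79A (1.15) called higher and MS4A1 at 0 in all 4 libraries compared. The 7 stromal and epithelial markers summed to 4.64 to 4.96, 7.71 to 8.04 and 7.99 to 8.31 CPM in the same order, with PDGFRB called higher and COL1A2, DCN and EPCAM at 0 in all 4. The 8 myeloid markers summed to at most 0.406 CPM in the 4 libraries and to 0.315 to 0.491 CPM in wild-type libraries. CD33 was called higher (1.91), and SPI1 went the other way without a call (-1.77, adjusted p = 0.10, edgeR quasi-likelihood test). The 6 erythroid and megakaryocytic markers summed to at most 1.59 CPM in the 4 libraries and to 1.72 to 2.15 CPM in wild-type libraries. None of them was called, and HBB and PF4 were among those at 0. The part of these markers in the results was not tested. In bulk RNA, fewer cells of a kind and less RNA per cell cannot be told apart.

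USP7 itself (chromosome 16, 8985954 to 9069185, minus strand, GRCh37) was reduced but still expressed. Its level was 227 and 220 CPM in the scrambled libraries and 144 and 149 CPM in the shRNA-4057 libraries, with 237 and 243 CPM in wild-type and 162 and 156 CPM in shRNA-4058 libraries. All 4 hairpin libraries lay below all 4 control libraries. The shRNA-4057 level was 65.5% of the scrambled level, -0.61 on the log2 scale (standard error, SE, 0.035, adjusted p = 5.8e-13, edgeR quasi-likelihood test), and against wild-type cells the log2 fold change came to -0.71 (SE 0.035, adjusted p = 2.2e-13). An unstranded count could hold reads of the antisense gene USP7-AS1, which overlaps it.

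**Figure D1:**
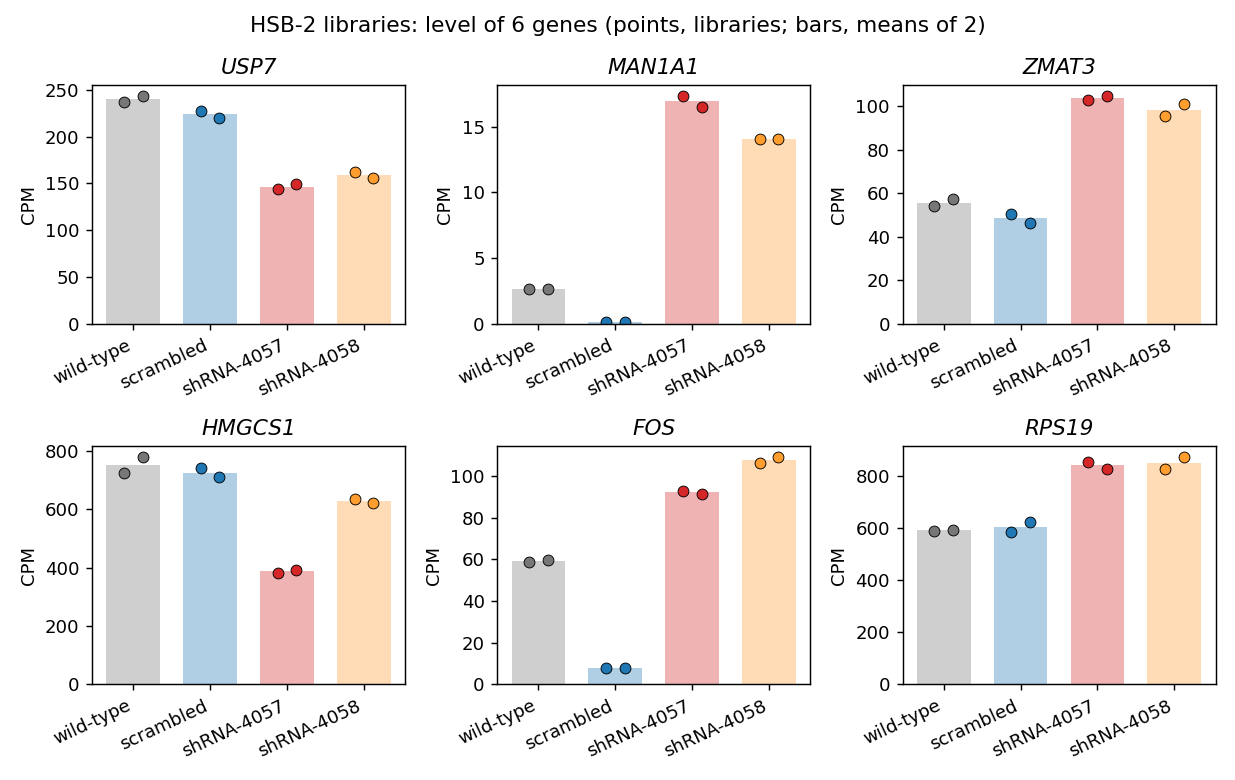
Level in CPM (vertical axes, starting at 0) of USP7, MAN1A1, ZMAT3, HMGCS1, FOS and RPS19 in the HSB-2 libraries, with points for libraries and bars for the mean of each group of 2. USP7 is lower in both hairpin groups than in both controls, HMGCS1 is lowest with shRNA-4057, and MAN1A1 and FOS are low in scrambled libraries relative to wild-type ones.

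Across the transcriptome 10046 of 23063 genes were called (43.6%), 5052 higher (21.9%) and 4994 lower (21.7%) with shRNA-4057, so calls of single genes were common. At least a 2-fold change was called for 2075 genes (9.00%), 1270 higher (5.51%) and 805 lower (3.49%). Against wild-type cells 719 genes passed both limits (3.12%), 337 higher (1.46%) and 382 lower (1.66%). The median log2 fold change over all genes tested was -0.016 against scrambled and -0.0043 against wild-type cells. Medians by chromosome ran from -0.11 on chromosome 4 to 0.068 on chromosome 20.

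Among called genes with a mean of 1 CPM or more over the 4 libraries and no overlap between the groups, the 10 that rose most held at most 7.28 CPM in scrambled libraries. MAN1A1, a Golgi mannosidase that trims N-glycans and overlaps RPL13AP15, was at 0.118 and 0.114 CPM in scrambled and 17.3 and 16.5 CPM in shRNA-4057 libraries. That was a 145-fold difference (log2 7.18, SE 0.12, adjusted p = 1.8e-22, edgeR quasi-likelihood test). Wild-type libraries held 2.64 and 2.63 CPM, so the log2 fold change against wild-type was 2.68. EPAS1, the hypoxia-inducible transcription factor HIF-2 alpha, was at 7.28 and 6.81 CPM in scrambled, 130 and 124 CPM in shRNA-4057 and 81.7 and 83.9 CPM in wild-type libraries. Its log2 fold change was 4.17 against scrambled and 0.62 against wild-type cells. NMUR1, the neuromedin U receptor, went from 0.198 and 0.108 CPM to 12.3 CPM in each shRNA-4057 library (log2 6.31), with a log2 fold change of 3.67 against wild-type. GCSAM, an adaptor first described in germinal centre lymphocytes, had a log2 fold change of 4.84, the keratin KRT3 4.78, SYTL3, a Rab27-binding vesicle protein, 4.63, the growth factor receptor PDGFRB 4.54 and the interleukin-18 receptor chain IL18R1 4.11. Each of these 5 was also called higher against wild-type cells, by 2.01, 1.68, 2.45, 2.18 and 1.37. The other 2 did not share this: RGS6, a brake on G-protein signalling, had 4.52 against scrambled and -0.14 (adjusted p = 0.44) against wild-type, and ANXA1, a phospholipid-binding protein, had 3.88 against scrambled and fell by 0.31 on the log2 scale against wild-type cells. Among the HSB-2 groups both were low in scrambled libraries alone.

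The 10 genes that fell most were chosen by the same rule. SUCNR1, the receptor for succinate, held 1096 and 862 counts in scrambled and 1 and 2 counts in shRNA-4057 libraries. The ratio was 341 in favour of scrambled cells, with an exact 95% counting interval of 116 to 1653 that covers counting error only. CYBB, the catalytic chain of the phagocyte NADPH oxidase, held 1481 and 1394 counts against 2 and 6 (ratio 188, interval 95.1 to 435). Wild-type libraries stood between, at 0.25 and 0.263 CPM for SUCNR1 and 0.925 and 0.978 CPM for CYBB, against 5.87 and 4.91 and 7.93 and 7.93 CPM in scrambled libraries. The complement receptor CR1 fell by 4.65 on the log2 scale, the phospholipase PLCE1 by 3.90, CST7, an inhibitor of lysosomal cathepsins, by 3.27, LRRC38, an auxiliary subunit of potassium channels, by 3.24, the small GTPase RAB44 by 3.14, pleckstrin (PLEK) by 2.81, the membrane protein EMP1 by 2.80 and FAM124A by 2.74. All 10 were called lower against wild-type cells as well, with smaller log2 fold changes, from -0.42 for FAM124A to -4.46 for CYBB.

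**Figure D2:**
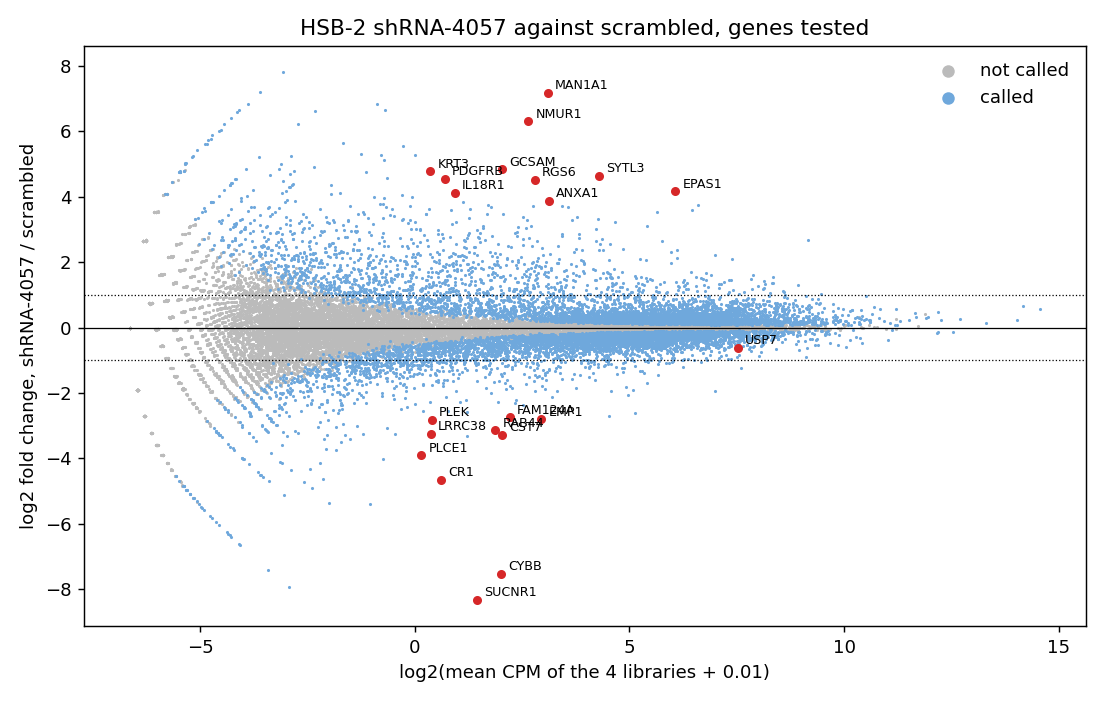
Log2 fold change of shRNA-4057 over scrambled HSB-2 cells (vertical axis) against log2 of the mean CPM of the 4 libraries plus 0.01 (horizontal axis) for the genes tested, with called genes in blue, dotted lines at 2-fold, and USP7 and the 10 highest and 10 lowest named genes in red. The named extremes all lie to the left of USP7, which is at -0.61.

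Targets of p53 were mostly higher. Of 28 members tested (30 listed) 25 were called higher and 1 lower, with a median log2 fold change of 0.55 beside -0.016 for all genes, and against wild-type cells 21 were called higher and none lower, with a median of 0.32. ZMAT3, an RNA-binding protein induced by p53, was at 50.4 and 46.2 CPM in scrambled, 103 and 104 in shRNA-4057 and 54.1 and 57.2 in wild-type libraries. It rose by 1.10 against scrambled cells (SE 0.050, adjusted p = 1.2e-14, edgeR quasi-likelihood test) and by 0.90 against wild-type cells. TP53INP1, which promotes p53-dependent death and autophagy, had 1.31 against scrambled and 0.93 against wild-type. The other 2 named targets moved mainly against scrambled cells. CDKN1A, the cell cycle inhibitor p21, was at 43.8 and 43.6 CPM in scrambled, 97.6 and 95.3 in shRNA-4057 and 86.6 CPM in both wild-type libraries, a log2 fold change of 1.14 and 0.16 in turn, and PLK3, a stress-responsive kinase, had 1.11 and -0.04 (adjusted p = 0.64 against wild-type). The member called lower was RRM2B, a subunit of ribonucleotide reductase, at -0.49. Among 18 tested partners of USP7 and regulators of p53 (20 listed) 5 were called higher and 7 lower with a median of -0.05, with no change reaching 2-fold. That was 66.7% of them beside 43.6% of all genes. Against wild-type cells 8 were called higher and 3 lower, with a median of 0.11. MDM2 had a log2 fold change of 0.16. The largest were FOXO4, a forkhead factor deubiquitinated by USP7, at 0.46, the p53 phosphatase PPM1D at 0.35, the histone chaperone DAXX at 0.28 and the maintenance methyltransferase DNMT1, which overlaps S1PR2, at -0.24. Relative to wild-type cells PPM1D had 0.35 and DNMT1 -0.44. FOXO4 (0.11, adjusted p = 0.21) and DAXX (0.10, adjusted p = 0.065) were not called there in the edgeR quasi-likelihood test. TRIM27 was not called, at -0.05 (adjusted p = 0.36). Of 48 tested USP family genes (52 listed) 11 were called higher and 15 lower, 54.2% of them beside 43.6% of all genes. USP40 was higher by 1.88, and USP44 (-0.76), USP45 (-0.74) and USP13 (-0.74) were lower than in scrambled cells. Against wild-type cells USP40 had 0.15 (adjusted p = 0.39, edgeR quasi-likelihood test), and USP44, USP45 and USP13 had -0.36, -0.47 and -0.56. In the USP family 8 genes were called higher and 14 lower against wild-type.

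Most genes of cholesterol and fatty acid synthesis fell with shRNA-4057, against either control, but most did not fall with shRNA-4058 against scrambled cells. For shRNA-4058 the difference from wild-type cells was not tested. In shRNA-4058 HSB-2 cells 18 were called higher and 5 lower against the same scrambled libraries (median 0.15). Of 31 tested (33 listed) 25 were called lower and 2 higher (median -0.40), and against wild-type cells 28 were called lower and none higher (median -0.47). HMGCS1, which commits acetyl-CoA to the mevalonate pathway, was at 741 and 711 CPM in scrambled and 725 and 779 in wild-type libraries but 382 and 392 in shRNA-4057 libraries. It changed by -0.91 against scrambled cells (SE 0.046, adjusted p = 8.8e-14, edgeR quasi-likelihood test) and by -0.96 against wild-type cells. The shRNA-4057 libraries lay well below all 4 controls, and the shRNA-4058 libraries also lay below all 4, but by less. The sterol demethylating enzyme MSMO1 fell by 0.96 on the log2 scale, although its scrambled libraries spread from 96.2 to 122 CPM, the fatty acid elongase ELOVL6 by 0.66 and the sterol desaturase SC5D by 0.66. FASN, the fatty acid synthase, was at 772 and 821 CPM in scrambled and 562 and 529 CPM in shRNA-4057 libraries (-0.55). Of the 2 members called higher, phosphomevalonate kinase (PMVK) rose by 0.23.

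Genes of cytosolic ribosomal proteins were mostly higher by small amounts, with log2 fold changes from -1.14 to 0.55. Of 80 tested (81 listed) 50 were called higher and 4 lower with a median log2 fold change of 0.13, and against wild-type cells 73 were called higher and 2 lower with a median of 0.30. RPS19 was at 584 and 622 CPM in scrambled, 852 and 827 in shRNA-4057 and 589 and 593 in wild-type libraries (log2 0.48, SE 0.036, adjusted p = 9.0e-11, edgeR quasi-likelihood test). RPS3 had 0.33, RPS27L, itself a p53-responsive paralog of RPS27, 0.55, and RPL36A -0.90, and ribosomal protein genes have many processed pseudogenes that can take reads from them. Of 30 tested replication-type histone genes (33 listed) 28 were called higher (median 0.59), yet only 6 were called higher and 5 lower against wild-type cells (median -0.0047), and scrambled cells had 29 of the 30 lower than wild-type. H1-2, a linker histone, was at 312 and 332 CPM in scrambled, 532 and 522 in shRNA-4057 and 513 and 503 in wild-type libraries. H2AC20 had 0.84, H2AC13 0.75 and H4C16 0.72, near-identical copies among which reads could be divided. The signal recognition particle RNA RN7SL2 took 1.36% and 1.497% of the counts of the scrambled libraries, 2.20% and 1.98% of the shRNA-4057 libraries and 1.64% and 1.74% of the wild-type libraries, and its part in these differences was not tested.

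Genes of the cell cycle differed by less than 2-fold with 1 exception. Of 36 mitotic genes tested 26 were called higher and 3 lower (median 0.25), against 14 higher and 6 lower relative to wild-type (median 0.057). The kinesin KIF20A had 0.61, the transcription factor FOXM1 0.56, the kinase AURKB 0.55 and the proliferation marker MKI67 0.52 against scrambled cells, and 0.12, 0.19, 0.19 and 0.10 against wild-type. Of 38 replication genes tested (39 listed) 13 were called higher and 12 lower (median 0.014), 65.8% of them beside 43.6% of all genes. Thymidine kinase TK1 was the exception, at 2.87 and 2.36 CPM in scrambled, 20.1 and 17.95 in shRNA-4057 and 10.7 and 10.1 CPM in wild-type libraries (log2 2.86). The reductase subunit RRM2 rose by 0.82, and E2F8 and E2F2 by 0.59 and 0.46.

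The interferon response genes, which cells switch on through interferon-activated transcription factors binding to a short element in promoters, separated the controls. IFIT3 is shown with the 250 bases before its annotated start sites, because it was the most changed named member of the list. It was also the only one of the 4 named members with an entry in the RefSeq promoter table (GRCh38.p14). Capitals mark the core of the interferon-stimulated response element as searched, GAAANNGAAA on either strand.
IFIT3 window 1, chr10:89327747-89327996, plus strand: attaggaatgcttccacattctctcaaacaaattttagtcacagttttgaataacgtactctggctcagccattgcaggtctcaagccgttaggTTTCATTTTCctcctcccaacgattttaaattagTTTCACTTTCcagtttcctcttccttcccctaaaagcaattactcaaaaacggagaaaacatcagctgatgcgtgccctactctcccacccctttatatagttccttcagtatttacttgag
IFIT3 window 2, chr10:89332279-89332528, plus strand: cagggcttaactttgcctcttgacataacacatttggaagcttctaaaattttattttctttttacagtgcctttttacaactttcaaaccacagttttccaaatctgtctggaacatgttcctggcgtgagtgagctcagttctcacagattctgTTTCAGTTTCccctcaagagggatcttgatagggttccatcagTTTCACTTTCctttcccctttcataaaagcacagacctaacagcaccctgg
Both windows held 2 matches, the first of them starting 156 bases before the start site in the first window and 94 bases before it in the second. Of the 34 interferon genes called higher 25 had a promoter in the table and 16 of these held the core (64.0%), against 4.38% of the 27305 genes with promoters in the table and against 1 of 20 p53 targets called higher that had a promoter in the table. Of all interferon genes tested 22 of 32 with promoters held it (68.8%). A match is a description of the letters and not a site.

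Of 42 interferon genes tested 34 were called higher and 1 lower with shRNA-4057 (median 0.59), 16 of them at least 2-fold. Against wild-type cells 14 were called higher and 2 lower (median 0.11), and scrambled cells themselves had 34 of the 42 lower than wild-type (median -0.49). IFIT3 was at 0.712 and 0.865 CPM in scrambled, 4.33 and 4.41 in shRNA-4057 and 3.20 and 3.09 in wild-type libraries (log2 2.47, SE 0.13, adjusted p = 2.6e-13, edgeR quasi-likelihood test, and 0.47 against wild-type). The antiviral GTPase MX2 had 2.01 against scrambled and 0.09 (adjusted p = 0.56) against wild-type, GBP2, a guanylate-binding protein, 1.97 and 0.26, and IFIT2 1.94 and 0.41. MX1 was not called, at 0.03. Among 17 genes of MHC class I presentation 14 were called higher and 2 lower (median 0.50), and against wild-type 12 and 3 (median 0.23). HLA-B was at 453 and 474 CPM in scrambled, 966 and 937 in shRNA-4057 and 659 and 675 in wild-type libraries (1.04), with HLA-F at 0.95 and the immunoproteasome subunits PSMB10 and PSMB9 at 1.16 and 0.91. HLA-B and HLA-F have close paralogs whose reads may be shared, PSMB9 overlaps PSMB8-AS1 and, antisense, PSMB8 and TAP1, and IFIT2 and IFIT3 lie antisense to LIPA.

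Genes of T-cell identity were higher in shRNA-4057 than in scrambled cells and differed less from wild-type cells. Of 25 T-lineage surface molecules tested 17 were called higher and none lower (median 0.77), of 22 T-cell receptor signalling genes (25 listed) 18 higher and 1 lower (median 0.38), and of 20 T-lineage transcription factors 14 higher and 2 lower (median 0.21). Against wild-type cells these counts were 12 higher and 3 lower (median 0.26), 12 and 3 (median 0.12), and 12 and 0 (median 0.17). CD8A was at 0.482 and 0.717 CPM in scrambled and 4.11 and 3.90 CPM in shRNA-4057 libraries (2.74), CD2, an adhesion molecule of T cells, had 2.62, the interleukin-2 receptor chain IL2RB 1.59 and CD27, which overlaps TAPBPL and CD27-AS1, 1.29. Relative to wild-type cells CD8A had 0.59, CD2 0.47, IL2RB 0.26 and CD27 0.52. The Tec kinase TXK had 3.09, the phosphatase PTPN22 1.71, THEMIS, needed for thymocyte selection, 1.51 and UBASH3A, a dampener of receptor signalling, 0.75. Against wild-type cells TXK had 0.49, PTPN22 0.37 and UBASH3A 0.32, and THEMIS was at 10.5 and 9.94 CPM in scrambled, 28.7 and 29.8 in shRNA-4057 and 14.2 and 15.2 CPM in wild-type libraries. ZBTB16 (PLZF), the factor of innate-like T cells, was at 21.7 and 22.7 CPM in scrambled, 120 and 110 in shRNA-4057 and 86.6 and 88.1 in wild-type libraries (2.37). IKZF3 had 1.45, TOX2 1.28 and RUNX3 1.10. Against wild-type cells ZBTB16 had 0.40 and RUNX3 0.60. IKZF3 (0.08, adjusted p = 0.68) and TOX2 (0.10, adjusted p = 0.67) were not called against wild-type in the edgeR quasi-likelihood test.

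TCF3, TCF12 and TAL1 differed modestly, and some of their partners and inhibitors differed by more. TCF3 was at 250 and 261 CPM in scrambled and 278 and 261 CPM in shRNA-4057 libraries and was not called (log2 0.08, SE 0.048, adjusted p = 0.21, edgeR quasi-likelihood test), a difference that turned to -0.05 with an offset for GC content and length. TCF12 was at 112 and 111 against 134 and 135 CPM (0.27, SE 0.032, adjusted p = 1.8e-07), and TAL1 at 99.8 and 104 against 128 and 125 CPM (0.31, SE 0.033, adjusted p = 4.1e-08). Against wild-type cells TCF12 had 0.20 and TAL1 0.10. In the list of E proteins, their ID inhibitors, TAL1 and LMO partners 10 of 14 tested (16 listed) were called higher and none lower (median 0.29). ID2 and ID3, which sequester E proteins, had 1.28 and 0.87, the TAL1 corepressor CBFA2T3 1.07 and the TAL1 relative LYL1 0.93. Against wild-type cells ID2 had 0.10 (adjusted p = 0.28), ID3 0.31, CBFA2T3 0.50 and LYL1 0.35.

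RAG1, RAG2 and PTCRA, classical E-protein targets, were scarcely transcribed in the HSB-2 libraries compared. RAG1 held 25 and 7 counts in scrambled and 7 and 6 counts in shRNA-4057 libraries, and its log2 fold change of -0.36 was not called (adjusted p = 0.63, edgeR quasi-likelihood test) and turned to 0.77 without the first scrambled library. RAG2 held 4 and 0 counts in scrambled and 0 in both shRNA-4057 libraries, and PTCRA 0 and 1 against 0, so that no fold is given. Of 12 genes listed and tested for receptor recombination, the pre-T-cell receptor and other E-protein targets, 3 were called higher and 4 lower. That was 58.3% of them beside 43.6% of all genes. Their median was -0.42, or -0.031 with the 4 members that had a group at 0 counts set at their bound. CD69, an activation marker and E-protein target, was at 26.7 and 25.2 CPM in scrambled, 109 and 116 in shRNA-4057 and 94.2 and 101 CPM in wild-type libraries (2.12, and 0.21 against wild-type). The end-joining genes XRCC4 and PRKDC fell by 0.60 and 0.49 and DCLRE1C (Artemis) rose by 0.33. In the NOTCH1 and MYC pathway 7 of 22 were called in each direction, 63.6% in all beside 43.6% of all genes. MYC was at 412 and 430 CPM in scrambled, 270 and 264 in shRNA-4057 and 356 and 362 in wild-type libraries (-0.66, SE 0.040, adjusted p = 1.8e-12), below every control library, while the pseudokinase TRIB2 rose by 1.37, MYCN by 0.97 and the MYC antagonist MXD3 by 0.90.

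Immediate early genes, which respond to signals within minutes, gave the highest list median. Of 30 tested 26 were called higher and none lower (median 1.42), 17 of them at least 2-fold, whereas against wild-type cells 19 were called higher and 5 lower (median 0.36) and scrambled cells had 28 of the 30 lower than wild-type (median -0.96). FOS was at 7.75 and 8.05 CPM in scrambled, 92.7 and 91.5 in shRNA-4057 and 58.6 and 59.7 in wild-type libraries (3.54, SE 0.065, adjusted p = 6.3e-22, edgeR quasi-likelihood test). EGR2 had 3.69 and EGR3 3.39 against scrambled, and 0.53 and 0.67 against wild-type. KLF2, which maintains quiescence and egress of T cells, kept more of its difference, at 2.79 and 1.67. Among 23 trafficking genes tested (24 listed) 16 were called higher and 3 lower (median 0.50), 10 of them at least 2-fold higher: the chemokine receptor CXCR3 had 2.98, the gut-homing integrin ITGB7 2.65 and the egress receptor S1PR1 1.44. The trafficking median against wild-type was 0.33. Of 15 cytotoxic effector genes tested (19 listed) 10 were called higher and 1, CST7, lower (median 1.27, or 1.11 with the 2 members that had a group at 0 counts set at their bound), and against wild-type 5 higher and 3 lower. Granulysin (GNLY) was at 12.6 and 14.3 CPM in scrambled, 183 and 181 in shRNA-4057 and 72.7 and 70.7 in wild-type libraries (3.76, and 1.34 against wild-type), granzyme A (GZMA) had 1.98 and NKG7 1.33. The sum of the 4 NK markers was also higher, at 0.0569 to 0.0642 CPM in scrambled, 0.232 to 0.338 in shRNA-4057 and 0.158 to 0.2 in wild-type libraries. NCAM1, the 1 marker tested, was called higher (2.12, adjusted p = 0.00021, edgeR quasi-likelihood test), and NCR1 and KLRF1 were at 0 in both shRNA-4057 libraries. Their part in the cytotoxic result was not tested.

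Hypoxia and glycolysis genes were split against scrambled cells, with 20 of 36 called higher and 11 lower (median 0.15), and were more uniform against wild-type, with 31 higher and 2 lower (median 0.30). EGLN3, an oxygen sensor that is itself induced in hypoxia, was at 66.5 and 70.2 CPM in scrambled, 161 and 160 in shRNA-4057 and 78.6 and 78.7 in wild-type libraries (1.23, and 1.029 against wild-type). ANKRD37 had 0.98 and 1.09, the lactate exporter SLC16A3 0.97 and 0.42, and NDRG1 0.80 and 0.27. Of 34 amino acid stress and ATF4 genes (35 listed) 15 were called higher and 10 lower (median 0.059), with the stanniocalcin STC2 at 1.67, DDIT3 (CHOP) at 1.56, CHAC1 at 1.23 and CEBPB at 0.74. Against wild-type cells STC2 had 0.80, CEBPB 0.35, DDIT3 0.18 (adjusted p = 0.088) and CHAC1 0.09 (adjusted p = 0.36).

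Smaller lists were mixed. Calls covered 77.8% of BCL2, 66.7% of C/EBP, 75% of N-glycan, 76.9% of RGS and 60% of noncoding genes tested, beside 43.6% of all genes. Against wild-type cells the calls higher and lower were, in the same order, 8 and 3, 2 and 1, 10 and 2, 3 and 1, and 2 and 3. In the BCL2 family 10 of 18 were called higher and 4 lower. BMF, a death-promoting member, was at 56.5 and 54.5 CPM in scrambled, 22.1 and 22.5 in shRNA-4057 and 25.5 and 24.7 in wild-type libraries (-1.32, and -0.17 against wild-type). BCL2A1, a survival member, rose by 2.04, BCL2L2 fell by 1.08 and PMAIP1 (NOXA), also a p53 target, rose by 0.78. Of 33 Polycomb and DNA methylation genes tested (35 listed) 10 were called higher and 5 lower, 45.5% of them beside 43.6% of all genes, among them TET2 at 0.43, YAF2 at 0.36 and PCGF1 at 0.36. In the C/EBP family 2 of 6 were called in each direction: CEBPE was at 62.7 and 66.3 CPM in scrambled, 19.8 and 20.5 in shRNA-4057 and 11.4 and 11.01 in wild-type libraries, so that it was lower than in scrambled cells (-1.68) and higher than in wild-type cells (0.84), and CEBPZ fell by 0.55. Of 16 N-glycan processing genes 9 were called higher and 3 lower, with MGAT3 at -0.79 against scrambled and 0.26 against wild-type, MAN2A1 at -0.63 and MGAT1 at 0.49. Of 13 RGS genes tested (18 listed) 6 were called higher and 4 lower, among them RGS1 at 3.63, RGS3 at 0.92 and RGS18 at -1.08. Of 10 noncoding RNAs tested (14 listed) 5 were called higher and 1 lower, with TERC at 0.91, RN7SL2 at 0.67, RN7SL3 at 0.51 and RN7SK at 0.24, and without the first shRNA-4057 library 3 were called. The call of RN7SL3, which has near-identical copies, was lost without either scrambled library or without the first shRNA-4057 library.

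**Figure D3:**
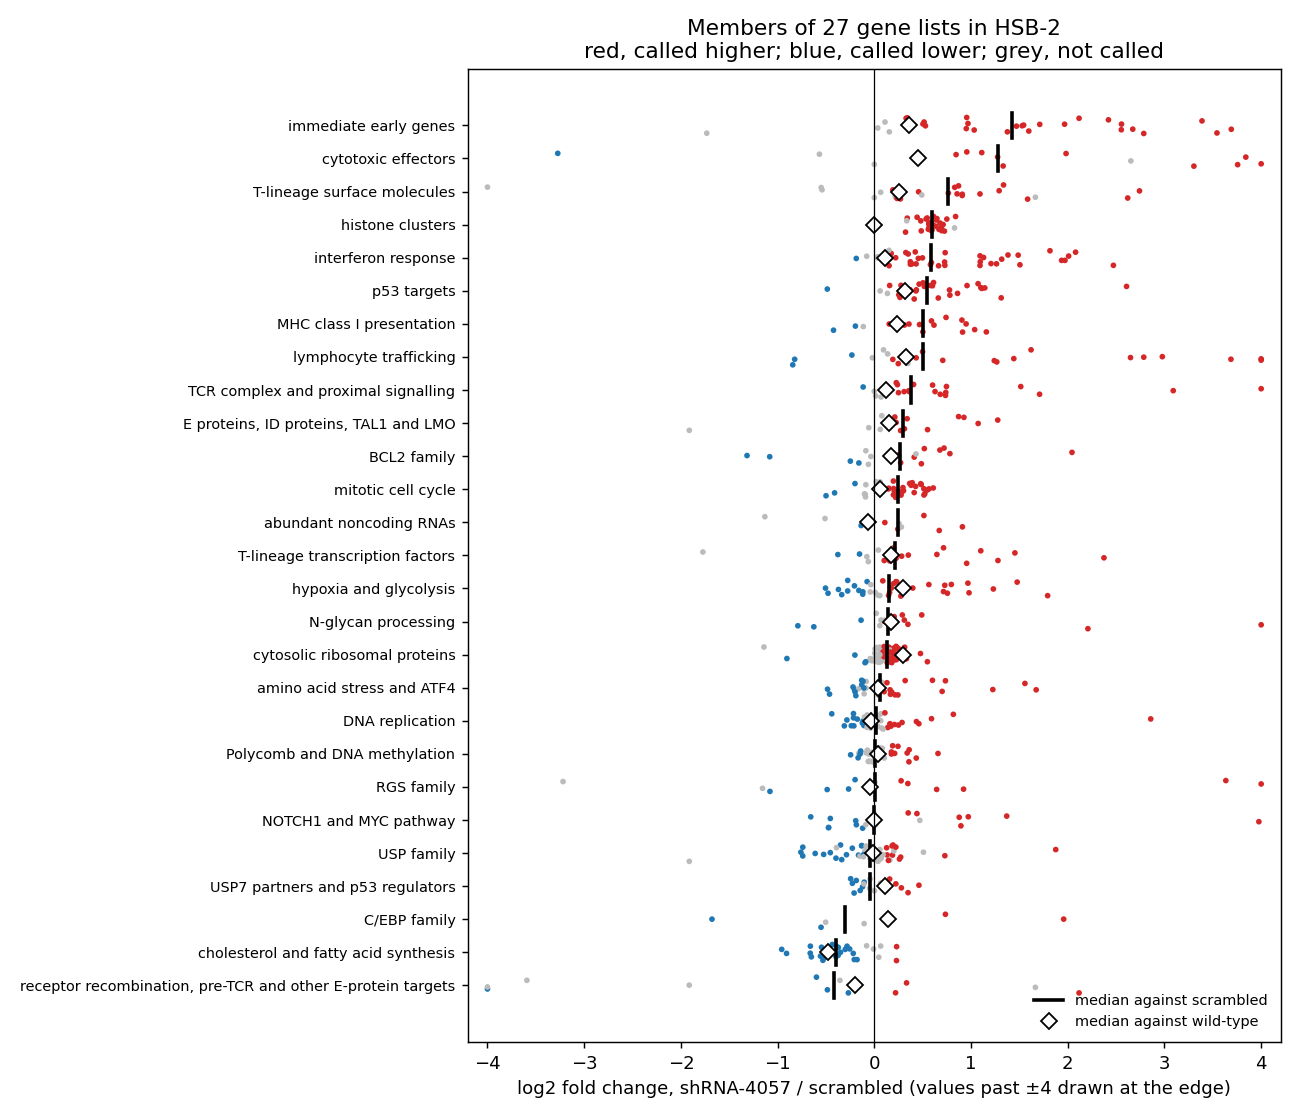
Log2 fold change of shRNA-4057 over scrambled HSB-2 cells (horizontal axis) for the tested members of 27 gene lists, with red for called higher, blue for called lower, a bar at the list median and an open diamond at the median against wild-type cells. Immediate early, histone and interferon lists have high medians against scrambled cells (1.42, 0.59 and 0.59) and medians near 0.36, 0 and 0.11 against wild-type, while the cholesterol list is low against both (-0.40 and -0.47).

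The direct comparison of hairpins does not use the scrambled libraries. It called 5716 of 23063 genes (24.8%), 2418 higher (10.5%) and 3298 lower (14.3%) with shRNA-4057 than with shRNA-4058, of which 548 differed at least 2-fold (2.38%). Leaving out the second shRNA-4057 library gave 3713 calls, 1535 higher and 2178 lower, and leaving out the second shRNA-4058 library gave 1125 higher. USP7 was at 144 and 149 CPM with shRNA-4057 and 162 and 156 with shRNA-4058 (log2 difference -0.12, SE 0.035, adjusted p = 0.015, edgeR quasi-likelihood test). The groups did not overlap, but the call was lost without the first shRNA-4057 library (-0.094, adjusted p = 0.15) or the first shRNA-4058 library (-0.091, adjusted p = 0.15).

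Sterol genes were the list with the largest share of calls between the hairpins. Of the 31 tested 30 were lower with shRNA-4057 than with shRNA-4058 and none higher (median -0.53). HMGCS1 was at 382 and 392 CPM with shRNA-4057 and 635 and 621 with shRNA-4058 (-0.70, SE 0.046, adjusted p = 1.2e-10, edgeR quasi-likelihood test), and MSMO1 at 55.2 and 57.1 against 99.0 and 105 CPM (-0.86). Hypoxia and glycolysis genes had 28 of 36 lower and 2 higher (median -0.27), immediate early genes 18 of 30 lower and 1 higher (median -0.21), interferon genes 17 of 42 lower and 2 higher (median -0.094) and T-lineage surface molecules 12 of 25 lower and 2 higher (median -0.25). Replication genes went the other way, with 20 of 38 higher and 1 lower (median 0.13). The p53 targets were divided, 7 higher and 6 lower of 28: CDKN1A was lower with shRNA-4057 (-0.64) and TP53INP1 higher (0.53), and ZMAT3 differed by 0.08 (adjusted p = 0.25). Ribosomal protein genes had 16 higher and 5 lower of 80 (median 0.037), beside 24.8% of all genes called between the hairpins.

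Single genes also set the hairpins apart. TBCA, a tubulin folding cofactor antisense to ACTBP2, was at 58.3 and 61.3 CPM with shRNA-4057 and 20.1 and 21.2 with shRNA-4058 (1.54, SE 0.048, adjusted p = 6.9e-16, edgeR quasi-likelihood test), while scrambled libraries held 62.9 and 61.6 CPM and wild-type libraries 56.5 and 56.1. Only the shRNA-4058 libraries were low. The G-protein subunit GNB4 was at 37.02 and 38.6 against 14.5 and 14.4 CPM (1.39), MPZL3 differed by 1.70, GCSAM by 1.58 and the guanylate cyclase subunit GUCY1A2 by 1.29. In the other direction the calcium channel CACNA1D was at 1.73 and 1.55 CPM with shRNA-4057 and 11.3 and 11.1 with shRNA-4058 (-2.77), ZBTB7B, the factor of helper T-cell commitment, at 0.642 and 0.647 against 3.25 and 3.11 (-2.31), and HES4, TEX19 and UST-AS2 differed by -2.02, -1.87 and -1.86. ZBTB7B in shRNA-4057 cells differed little from scrambled cells (-0.06, adjusted p = 0.81).

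**Figure D4:**
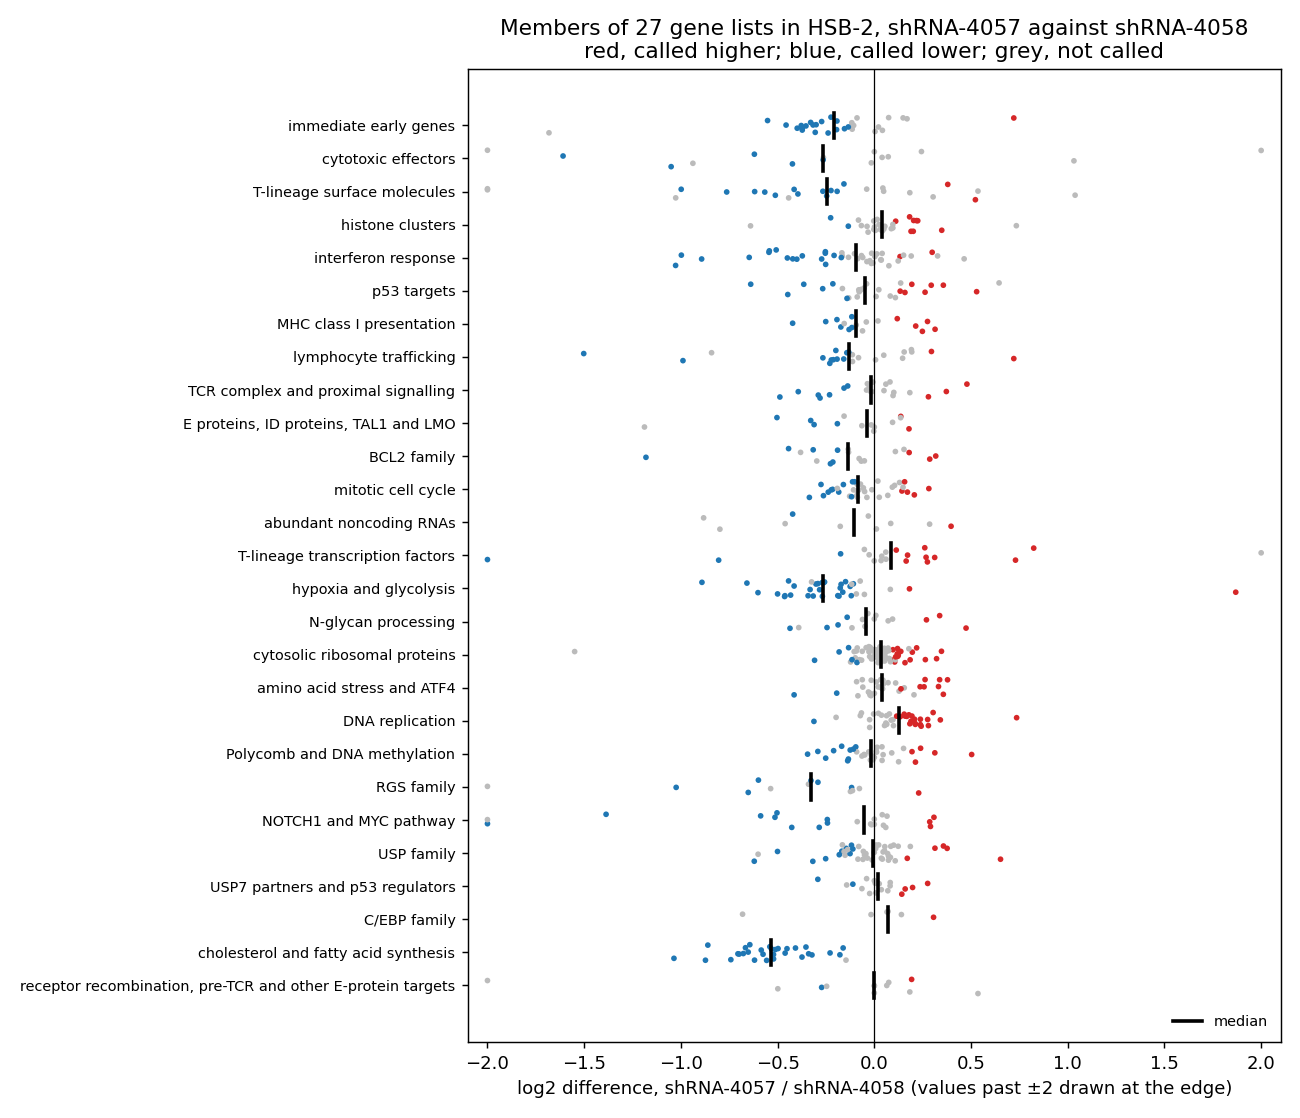
Log2 difference between shRNA-4057 and shRNA-4058 HSB-2 cells (horizontal axis) for the tested members of the 27 gene lists in the same order, with red for called higher, blue for called lower, grey for not called and a bar at the list median. Nearly all cholesterol and fatty acid genes lie left of 0 (30 of 31 called lower), and replication genes lie mostly right of it.

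The same hairpin in Jurkat cells, each line against its own scrambled libraries, gave different effects. The difference of the effects was called for 10769 of 23063 genes (46.7%), 5749 higher in HSB-2 (24.9%) and 5020 lower (21.8%), and 3529 of these differences reached 2-fold (15.3%). In Jurkat itself 11527 genes were called (50.0%), 5231 higher (22.7%) and 6296 lower (27.3%). USP7 fell further in Jurkat: it was at 384 and 387 CPM in scrambled and 140 and 145 CPM in shRNA-4057 Jurkat libraries (-1.43), so that the effects differed by 0.82 toward a smaller fall in HSB-2 (SE 0.049, adjusted p = 1.7e-12, edgeR quasi-likelihood test). The shRNA-4057 levels of the lines lay close together (144 to 149 and 140 to 145 CPM) and the scrambled levels did not.

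Cholesterol and fatty acid genes fell in both lines and further in Jurkat, with 30 of 31 called lower there (median -0.90) and 27 of 31 called for a difference between lines, all with the higher effect in HSB-2. HMGCS1 fell by 1.12 on the log2 scale in Jurkat and 0.91 in HSB-2 (difference 0.21, adjusted p = 0.010, edgeR quasi-likelihood test), and ELOVL6 by 0.66 in each (difference adjusted p = 0.99). Ribosomal protein genes were called lower in 77 of 80 cases in Jurkat (median -0.67) where 50 were called higher in HSB-2, and the difference was called for 75 higher and 1 lower. Hypoxia and glycolysis genes were called lower in 32 of 36 cases in Jurkat (median -0.53). The p53 targets had 7 higher and 10 lower in Jurkat, and the line difference was called for 23 of 28 toward HSB-2 and 1 away. Histone genes had none higher and 20 lower of 30 in Jurkat. RN7SL2 took 4.01% and 4.84% of counts in the scrambled and 2.21% and 2.10% in the shRNA-4057 Jurkat libraries, the reverse of its order in HSB-2. Wild-type Jurkat libraries lay between, at 2.65% and 3.14%. The part of RN7SL2 in these line differences was not tested. The list values given here for the lines are against scrambled cells. Against wild-type HSB-2 cells the histone and immediate early medians were -0.0047 and 0.36. With wild-type controls in both lines 1697 genes in place of 3529 were called at least 2-fold different.

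Apart from MAN1A1, the named genes with the widest line differences had a group at or near 0 counts in 1 line. MAN1A1 rose in HSB-2 and fell in Jurkat, from 27.5 and 26.0 CPM to 12.4 and 11.1 CPM (-1.19), a difference of 8.37 (SE 0.14, adjusted p = 3.8e-22, edgeR quasi-likelihood test). HLA-DRB1, a class II antigen chain with close paralogs, held 10 counts over both scrambled and 212 over both shRNA-4057 HSB-2 libraries (ratio 40.6, interval 21.65 to 85.9) and fell by 1.47 in Jurkat. ADCYAP1, a neuropeptide gene, held 1 count over both scrambled and 69 over both shRNA-4057 HSB-2 libraries (ratio 132, interval 22.95 to 5296), and SHISAL1 rose by 2.69 in HSB-2 and held 20 counts over both scrambled and 0 over both shRNA-4057 Jurkat libraries. Of the lowest, HRH2, the histamine H2 receptor, was at 13.6 and 14.5 against 14.0 and 15.2 CPM in HSB-2 and went from 0 counts to 18 and 14 counts in Jurkat, and the dopamine transporter SLC6A3 fell by 1.87 in HSB-2 and went from 2 counts in each scrambled library to 60 and 36 in Jurkat. ADAM33 held 33 and 28 counts in scrambled and 0 in shRNA-4057 HSB-2 libraries, at least 10.6-fold lower with a floor of 3 counts over the group, and LHFPL3-AS2 held 5 and 5 counts against 0, at least 1.74-fold lower. CYBB held at most 1 count in any Jurkat library of this comparison and NMUR1 at most 3, so their differences rest on HSB-2. RAG1, by contrast with HSB-2, was at 26.2 and 25.5 CPM in scrambled and 3.58 and 3.53 CPM in shRNA-4057 Jurkat libraries (-2.86). CD69 rose by 2.12 in HSB-2 and fell by 1.43 in Jurkat, a difference of 3.55.

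**Figure D5:**
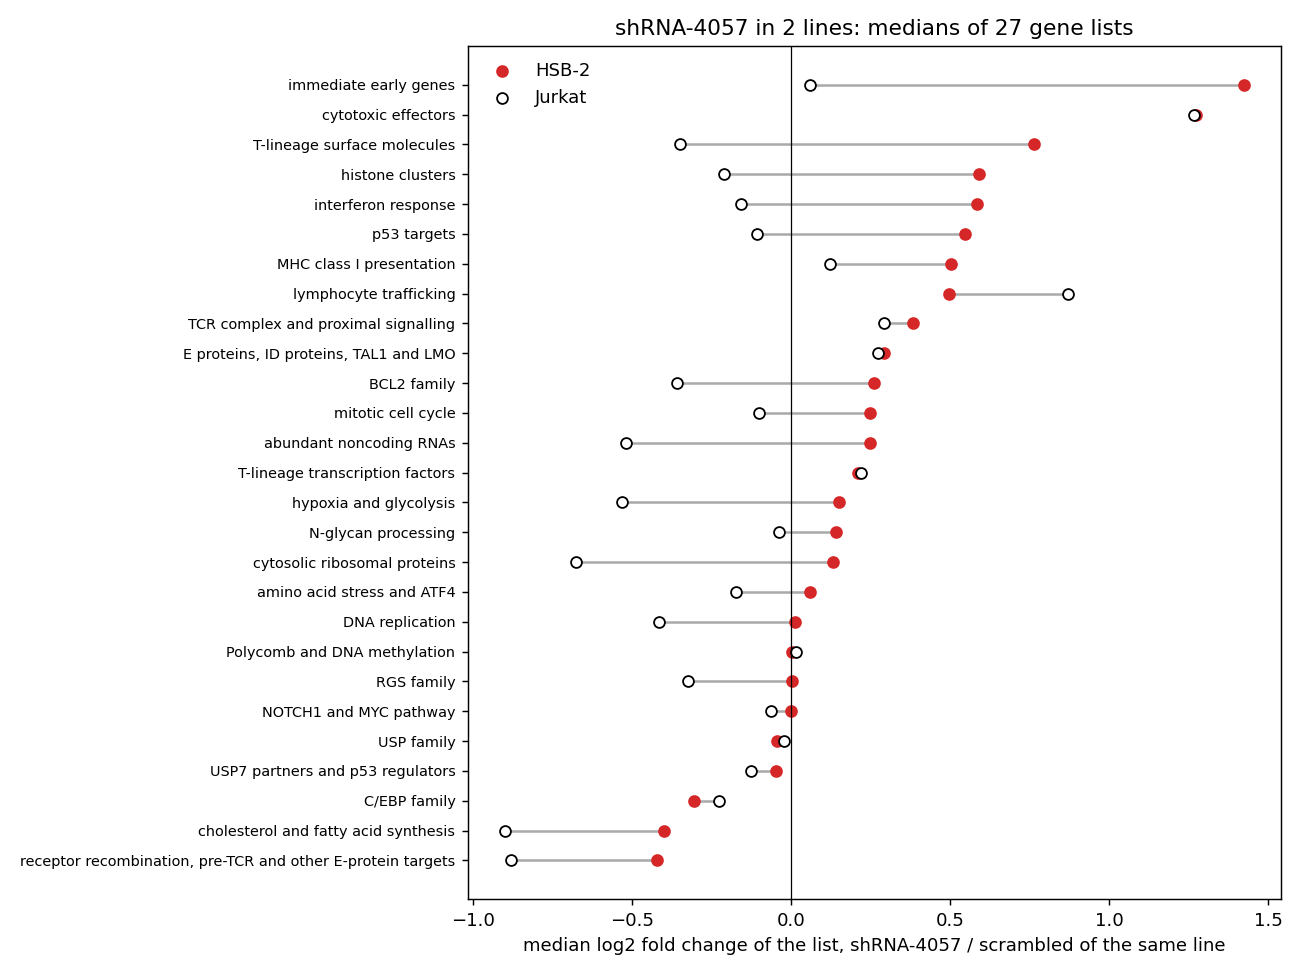
Median log2 fold change of shRNA-4057 over scrambled cells of the same line (horizontal axis) for each of the 27 gene lists, with filled points for HSB-2 and open points for Jurkat. The lines lie far apart for immediate early (1.42 and 0.062), histone (0.59 and -0.21) and ribosomal protein genes (0.13 and -0.67), and on the same side of 0 for cholesterol genes (-0.40 and -0.90) and T-cell receptor signalling genes (0.38 and 0.29). Against wild-type HSB-2 cells, not drawn, the immediate early and histone medians were 0.36 and -0.0047.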

How the data were processed

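RNA-seq of HSB-2 and Jurkat cells was analysed from raw read counts per gene, which the authors deposited without normalization or pooling. The authors mapped reads with an in-house pipeline using BWA against GRCh37-lite and transcript collections and counted them with HT-seq (0.6.1p1 per the submitters' processing notes, which also name CASAVA, STAR and hg19). The library kit was stranded, and the strand setting and annotation release are not given in the sources used here, so overlapping, antisense and near-identical genes may share reads. The table held gene identifiers only. Symbols of 96.1% of its 57820 genes, and GRCh37 coordinates, came from GENCODE, and mitochondrial genes were at 0 throughout.

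The analysis used edgeR 4.0.16 in R 4.3.3: filterByExpr on the 8 groups, TMM scaling, and the quasi-likelihood F-test in 1 fit of all 16 libraries with 8 residual degrees of freedom (biological coefficient of variation 4.20%). Genes were called at a Benjamini-Hochberg adjusted p under 0.05 over all 23063 genes tested. Standard errors (SE) were derived from the F statistic and the log2 fold change. Total counts of 76602847 to 235467749 put the floor of 3 counts, the most that a count of 0 allows, at 0.0127 to 0.0392 CPM. Floors and counting intervals cover counting error only.

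Groups came from sample titles. The members and gene lists were chosen with earlier results of these data known, so lists are described by counts and medians without a test of the list. Named genes were USP7, the 10 highest and 10 lowest changes among called genes at 1 CPM or more whose groups did not overlap (68.5% of genes tested did not overlap), up to 4 called members of each list by size, the 5 highest and lowest differences between hairpins and between lines, and 8 genes the study discusses. MDM2, RRM2B, FASN, PMVK and MX1 were added after their values were seen, and some genes are not reported here. The fit was tested on simulated counts with known changes. Alternatives were DESeq2 1.42.0, its size factors, other filters, a replicate block, thinned libraries, a GC and length offset, smaller fits, wild-type controls and leaving out each library.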

Additional observations from a re-analysis of the deposited data

Results flagged for a closer look

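The results listed here drew attention because the effect of shRNA-4057 in HSB-2 differed from its effect in Jurkat, each line set against its own scrambled libraries, in edgeR's test of the difference (called for 10769 of 23063 genes). Values are the effect in HSB-2 minus the effect in Jurkat on the log2 scale. For USP7 the difference was 0.82. At the extremes by the naming rule it was SHISAL1 9.45, MAN1A1 8.37, ADCYAP1 7.40, NMUR1 6.90 and HLA-DRB1 6.76, and CYBB -10.88, HRH2 -7.16, SLC6A3 -6.17, ADAM33 -6.02 and LHFPL3-AS2 -5.87, where all but MAN1A1 and HLA-DRB1 had a group with at most 3 counts in each library in 1 line, so that the fitted size depends on the prior count and is no bound.

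Other named genes were called in opposite directions in the lines and differed at least 2-fold between them. All but PLEK were higher in HSB-2 and lower in Jurkat: among p53 targets and death genes TP53INP1 2.17 and CDKN1A 1.60 (PMAIP1 1.0), among immune and T-lineage genes GBP2 5.15, PSMB10 1.72, PSMB9 1.09, CD2 2.96, CD69 3.55 and GNLY 6.34, among transcription factors and cofactors CBFA2T3 1.90, MYCN 2.01, EGR2 4.02 and HES4 1.99, among hypoxia genes EGLN3 3.17, ANKRD37 1.62, SLC16A3 1.34 and NDRG1 1.36, among genes of growth TK1 3.76, H4C16 1.39, H1-2 1.18, RPS19 1.16 and RPS3 1.21, among noncoding RNAs TERC 2.38, RN7SL2 1.99, RN7SL3 2.10 and RN7SK 1.23, and for the surface and signalling genes GCSAM 5.99 and PDGFRB 6.10. For PLEK it was -3.76. HES4 held at most 0.502 CPM in the scrambled and shRNA-4057 HSB-2 libraries and was not called against wild-type HSB-2 cells. Scrambled libraries of HSB-2 stood apart from wild-type ones, and with wild-type cells of each line as the control 1697 genes in place of 3529 were called at least 2-fold different between the lines.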

How the results depend on the processing

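Of 124 named genes called against scrambled cells, 121 to 124 kept their direction and call in the fits that changed the tool, scaling, filter, block, depth, offset, libraries fitted or 1 library left out (121 is the number of genes left with 10 counts in every library). With wild-type cells as the control 99 did, 20 kept the direction without the call, and 5 turned: RGS6 -0.14, ANXA1 -0.31, PLK3 -0.041, CEBPE 0.84 and MGAT3 0.26. These counts leave out USP7 and the genes named only for a difference between hairpins or lines. Among the latter HES4, called at 0.88 against scrambled cells, turned to -0.11 against wild-type (adjusted p = 0.85, edgeR quasi-likelihood test). Of the genes not called, TCF3 turned to -0.051 with the GC and length offset and -0.028 against wild-type, TRIM27 to 0.15 against wild-type and 0.050 against the mean of both controls, and RAG1, at -0.95 to 0.77 with 1 library left out, to 0.77 without the first scrambled library. The cause was not tested.

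Genes called at least 2-fold against scrambled cells numbered 719 with wild-type cells and 1299 with the mean of both controls, and 1697 for the line difference with wild-type controls. Lists called 16 interferon, 11 histone and 4 RGS genes with wild-type controls. The medians were -0.020 for chromosome 4 and 0.040 for chromosome 20 with wild-type controls. The hairpin comparison called 318 genes at least 2-fold with 10 counts in every library. Leaving out each library in turn gave, between the hairpins, 3713 to 4478 calls, 1125 to 1885 higher and 2178 to 3353 lower, and USP7 at -0.19 to -0.091, and against scrambled cells 3 to 7 noncoding RNAs called and a median of -0.15 to -0.091 for chromosome 4. DESeq2 left 4472 adjusted p-values of the hairpin comparison undefined.

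The labels number replicates but do not pair them, and deviations of same-numbered scrambled and shRNA-4057 libraries correlated at -0.16. A replicate block called 9849 genes, 4973 of them higher, with USP7 at -0.61, and changed no named call. Crossed numbers, added after seeing the data, called 10101 genes.

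With 2 libraries a group and a scrambled control that stands apart from wild-type cells, the size of many changes depends on the control used. Genes near 0 counts limit RAG1, RAG2 and PTCRA in HSB-2.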
